A study of Mus musculus with 6 samples.

Results

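Gad1, Gad2, Pvalb and Slc17a6, 4 markers of inhibitory and excitatory neurons, were followed through RNA of tagged neurons and RNA of the whole tissue in the mouse perioculomotor (pIII) region, the midbrain around the oculomotor nucleus. They were chosen by symbol, and each had 1 row among the 5538 genes of the table. The mice were C57BL/6 and carried a drug-inducible Cre recombinase (CreER) driven by the Fos promoter, together with a Cre-dependent reporter that makes the ribosomal protein L10a fused to eGFP. Every mouse, whichever group its RNA served, was kept awake for 6 hr and then had 3 hr of recovery sleep, and 4-OHT, the drug that activates the Cre, was given just before the first or the second of these phases. The labels do not say for each library which injection was used, nor do they give ages. The series text speaks of neurons tagged in recovery sleep. IP is RNA that came down with tagged ribosomes on an eGFP antibody, and Input is taken to be the tissue RNA before that step. There were 3 IP and 3 Input libraries, each from pooled tissue of 4 to 5 mice, so the spread between libraries is a spread between pools. The tag reports that the Fos promoter was active while the drug was present, and it may enter any cell type in which that happens.

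Gad1 and Gad2 encode the enzymes GAD67 and GAD65, which make GABA, the main inhibitory transmitter of the brain, from glutamate. Slc17a6 encodes VGLUT2, the transporter that loads glutamate into synaptic vesicles and marks most excitatory neurons of the midbrain and brainstem. Pvalb encodes parvalbumin, a calcium buffer of fast-firing neurons that is often used as a marker of GABA neurons but is not limited to them. The midbrain around the oculomotor nucleus holds both inhibitory and excitatory neurons beside cholinergic motor neurons, and the comparison asks which of these transmitter types the tagged neurons belong to.

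Values are TPM, a measure of transcript abundance scaled to a fixed library total. They are scaled by transcript length so that levels of different genes can be set side by side within a library, although short and long transcripts still differed between libraries, as given below. TPM keep no read depth, so the number of reads behind a value is unknown. The lowest value in the table is 7 TPM, and genes below that level in any library have no row here. Slc32a1, the vesicular GABA transporter, and Slc17a7 and Slc17a8, the other vesicular glutamate transporters, had no row. The median gene of each library differed, and stood at 27.7, 56.5 and 50.95 TPM in the IP libraries 1 to 3 against 64.3, 67.2 and 31.1 TPM in the Inputs, in the same order. Levels are therefore also given as log2(TPM + 1) minus the median gene of the same library, called relative levels below. IP 1 and Input 3 stood apart from the other libraries: across genes IP 1 correlated with IP 2 and IP 3 at r = 0.831 and 0.882, against 0.962 between IP 2 and IP 3, and Input 3 with Inputs 1 and 2 at r = 0.722 and 0.736, against 0.973 between those. The markers and the lists of GABA, glutamate and interneuron genes are given with and without these libraries. Rpl10a, the transcript of the tagged ribosomal protein, had 558.83, 365.22 and 438.76 TPM in IP and 116.97, 61.76 and 36.22 TPM in Input, so every IP library was above every Input library.

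Gad1 lies on chromosome 2 (70553072 to 70602014, plus strand, GRCm38, the build also called mm10), Gad2 on chromosome 2 (22622205 to 22693874, plus strand), Pvalb on chromosome 15 (78191114 to 78206400, minus strand) and Slc17a6 on chromosome 7 (51622006 to 51671119, plus strand). Their longest coding transcripts in GENCODE M21 span 3355, 5744, 977 and 4137 bases, so Pvalb is by far the shortest. No stretch of 31 bases was common to transcripts of Gad1 and Gad2. Of 7649 such stretches in Gad1 transcripts, 289 also occur in its processed pseudogene Gad1-ps, and of 5830 in Gad2 transcripts 102 occur in transcripts of other genes. Pvalb had 0 shared stretches and Slc17a6 had 2. The gene span of the antisense RNA Gad1os overlaps that of Gad1, but the exons of both had 0 bases in common.

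For each gene, 120 bases upstream of 1 RefSeq start are shown, 5′ to 3′, from the RefSeq table of GRCm38.p6. They end at that start, or just before an annotated exon of the gene that begins upstream of it. The Gad1 and Gad2 stretches end upstream of their RefSeq starts (70562129 and 22622327), and that of Gad1 lies inside its gene span. Capitals mark matches, on either strand, to 4 motifs: TATAAA, known as the TATA box, then the E-box CANNTG, the AP-1 motif TGANTCA, which Fos proteins bind, and the core of the cyclic AMP response element, TGACG.

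Gad1, chr2:70561922-70562041, plus strand: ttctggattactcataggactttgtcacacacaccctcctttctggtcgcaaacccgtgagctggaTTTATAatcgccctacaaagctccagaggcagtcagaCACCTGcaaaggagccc

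Gad2, chr2:22622085-22622204, plus strand: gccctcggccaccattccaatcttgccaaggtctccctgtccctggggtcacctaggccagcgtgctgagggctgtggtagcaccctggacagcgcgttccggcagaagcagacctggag

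Pvalb, chr15:78206401-78206520, minus strand: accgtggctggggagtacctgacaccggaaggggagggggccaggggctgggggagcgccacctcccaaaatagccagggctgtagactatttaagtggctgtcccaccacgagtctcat

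Slc17a6, chr7:51621710-51621829, plus strand: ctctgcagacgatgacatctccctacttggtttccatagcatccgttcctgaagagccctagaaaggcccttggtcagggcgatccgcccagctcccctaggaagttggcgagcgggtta

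In these 4 stretches the Gad1 promoter held a TATAAA, read on the opposite strand, and an E-box, and the other 3 held no match. RefSeq lists a second start for Pvalb and for Slc17a6, which brings the windows to 6. Over all 6, an E-box was present in 3, TATAAA in 1, TGACG in 1 and TGANTCA in 0. Among all 32851 promoter windows of the same length, each ending at its RefSeq start, 40.2% held CANNTG, 6.34% TATAAA, 11.7% TGACG and 3.41% TGANTCA. The Gad1 and Gad2 windows end farther upstream, so they differ in position from these. A match is a string of letters and no evidence of binding, and these windows are short.

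Gad1 was the higher of the 2 GABA enzymes in every library. Its values were 19.07, 149.77 and 228.52 TPM in the IP libraries and 214.14, 146.49 and 146.95 TPM in the Inputs, in replicate order as throughout. IP 1 was far below all other libraries, while IP 2 and IP 3 lay among or above the Inputs. The relative level of Gad1 was -0.51, 1.39 and 2.14 in IP and 1.72, 1.11 and 2.21 in Input, so the groups overlapped on this scale too. Ranked among all genes of its library, Gad1 stood at the 36.1 percentile in IP 1 and between 75.6 and 90.4 in the other 5 libraries. The difference of IP from Input was -0.67 on the relative log2 scale (SE 0.67, 95% interval -2.23 to 0.89), with an adjusted p of 0.784 by limma over all genes. Without IP 1 it was 0.09 (SE 0.41).

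Gad2, whose product GAD65 sits at nerve terminals, had 10.25, 71.87 and 76.41 TPM in IP and 115.13, 88.73 and 22.44 TPM in Input. Here a library of each group was low, IP 1 and Input 3, and the remaining 4 ranged from 71.87 to 115.13 TPM. Relative to the median gene Gad2 was at -1.35, 0.34 and 0.58 in IP and at 0.83, 0.40 and -0.45 in Input. IP 2 and IP 3 thus lay within the range of the Inputs. The difference was -0.40 (SE 0.56, 95% interval -1.73 to 0.92), with a limma adjusted p of 0.837, and without IP 1 it was 0.20 (SE 0.40). The share of Gad2 in the summed TPM of both enzymes was 35.0%, 32.4% and 25.1% in IP and 35.0%, 37.7% and 13.2% in Input. Gad1 therefore outweighed Gad2 most in Input 3, where it was 6.55 times as high.

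The 3 IP libraries had 8.70, 57.47 and 65.31 TPM of Slc17a6, against 49.08, 58.24 and 24.64 TPM in the Inputs. In IP 1 it was close to the lowest value in the table, at the 6.27 percentile of that library, below the 39.1 to 44.2 percentiles of the Inputs. Its relative level was nearly the same in the 3 Inputs, at -0.38, -0.20 and -0.32 (SD 0.09), although their TPM differed. In IP it was -1.56, 0.02 and 0.35 (SD 1.02), so that IP 2 and IP 3 were above all Inputs and IP 1 below all of them. The difference over all libraries was -0.09 (SE 0.48, 95% interval -1.22 to 1.04), with a limma adjusted p of 0.959. Without IP 1 it turned to 0.49 (SE 0.22), with an adjusted p of 0.752, so the direction of Slc17a6 rested on that library.

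Pvalb was the highest of the 4 markers in all 3 IP libraries, with 390.88, 358.95 and 386.93 TPM. The Inputs had 124.92, 248.57 and 427.06 TPM, and Pvalb was also the highest of the 4 in Inputs 2 and 3, while Gad1 was in Input 1. In TPM the IP values were thus close together (379 ± 17.4, SD, n = 3) and above Inputs 1 and 2, while Input 3 exceeded them all (Input 267 ± 152, SD, n = 3). On the relative scale they were less close, as the median gene of IP 1 was lower. Pvalb was at 3.77, 2.65 and 2.90 in IP (SD 0.59) and at 0.95, 1.87 and 3.74 in Input (SD 1.42) on that scale. The difference was 0.92 (SE 0.70, 95% interval -0.72 to 2.56), with a limma adjusted p of 0.739. It was 1.70 (SE 0.45) without Input 3, where it still missed the threshold over all genes (adjusted p = 0.207).

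**Figure D1:**
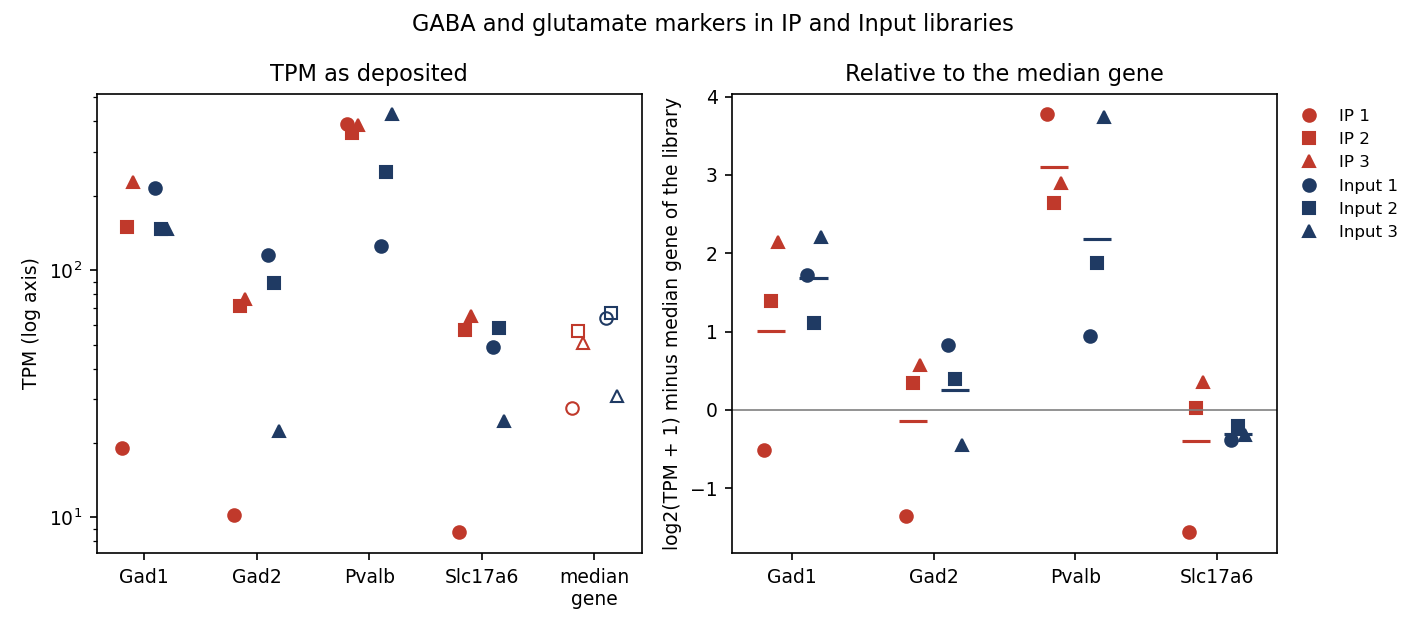
TPM of the 4 markers and of the median gene in each library (left, log axis) and log2(TPM + 1) minus the median gene of the library (right), with IP in red, Input in dark blue, circles, squares and triangles for replicates 1, 2 and 3, and short lines for group means on the right. IP 1 is the lowest library for Gad1, Gad2 and Slc17a6 on both scales, while for Pvalb it is the highest on the relative scale, with Input 3 next to it.

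Of the 4 markers, 0 passed the limma test at an adjusted p of 0.05, and over all 5538 genes the share that passed was 0% as well (smallest adjusted p 0.649, while an unadjusted p under 0.05 was reached by 198 genes with a positive and 213 with a negative difference). For 0 of the 4 did all IP relative levels lie above all Input levels, against 6.93% of all genes, and for 0 of the 4 did they all lie below, against 9.71%. In a bulk sample, fewer cells of a type and less RNA per cell cannot be told apart, so these values describe transcripts and not numbers of neurons. A second reading without both IP 1 and Input 3, chosen after the data were seen, compares 2 IP with 2 Input libraries. In it Pvalb was higher in IP (log2 1.36, SE 0.29, limma adjusted p = 0.0317), a call made for 3.38% of all genes in that direction. This reading leaves out Input 3, which at 427.06 TPM had more Pvalb than any IP library. Over all libraries the limma adjusted p of Pvalb was 0.739, so the call depends on which libraries are kept. Gad1, Gad2 and Slc17a6 were not called in the second reading, with log2 differences of 0.35, -0.15 and 0.48 (SE 0.29, 0.22 and 0.20).

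The balance of GABA to glutamate markers was taken within each library as the summed TPM of Gad1 and Gad2 over that of Slc17a6. Such a ratio does not depend on how libraries are scaled. The summed GABA enzymes had 29.3, 222 and 305 TPM in IP and 329, 235 and 169 TPM in Input. The ratio was 3.37, 3.86 and 4.67 in IP and 6.71, 4.04 and 6.87 in Input. All libraries thus held more GAD than VGLUT2 transcript. Although both of its parts were far lower in IP 1, the ratio there was near those of IP 2 and IP 3. IP 1 and IP 2 were below all Inputs, and IP 3 was above Input 2. Its log2 averaged 1.97 ± 0.24 over the IP libraries and 2.51 ± 0.43 over the Inputs (SD, n = 3), which differed by -0.54 (SE 0.28). An exact two-sided permutation test over the 6 libraries gave p = 0.2, and 0.72 after Benjamini-Hochberg adjustment over the 6 marker ratios computed. With 3 libraries a group that test cannot go below 0.1. The difference stayed negative with each library left out in turn, between -0.79 and -0.41, and was -0.29 in the second reading.

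The ratio of Gad2 to Slc17a6 was the steadiest of the 6 ratios among the IP libraries, at 1.18, 1.25 and 1.17, though both genes varied several-fold among them. In Input it was 2.35, 1.52 and 0.911, so the IP values lay inside the Input range. The difference of the log2 ratio was -0.31 (SE 0.40, exact permutation p = 0.6, adjusted 0.72). Gad1 to Slc17a6 gave 2.19, 2.61 and 3.50 in IP and 4.36, 2.52 and 5.96 in Input, and the log2 values differed by -0.57 (SE 0.41, exact permutation p = 0.3, adjusted 0.72). Inputs 1 and 3 were above all IP libraries here, and Input 2 lay between IP 1 and IP 2.

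In IP 1 Pvalb did not share the low levels of the other 3 markers, and in Input 3 the relative levels of Pvalb and Gad1 were their highest among the Inputs, while that of Gad2 was its lowest. Its ratio to the summed GABA enzymes was 13.3 in IP 1, against 1.62 and 1.27 in IP 2 and IP 3, and 0.379, 1.06 and 2.52 in Inputs 1, 2 and 3. In IP every ratio was above 1, while Input 1 had less Pvalb than GAD transcript. The log2 difference was 1.59 (SE 1.34, exact permutation p = 0.4, adjusted 0.72). Its ratio to Slc17a6 was 44.9, 6.25 and 5.92 in IP and 2.55, 4.27 and 17.3 in Input, and the log2 values differed by 1.05 (SE 1.27, exact permutation p = 0.5, adjusted 0.72). In IP 2 and IP 3 both Pvalb ratios were above those of Inputs 1 and 2 and below those of Input 3. Pvalb has a short transcript and the other 3 markers long ones, and in IP 1 transcripts under 1000 bases stood higher and those of 3000 bases and over lower than in IP 2 and IP 3. The part of this in the Pvalb ratios of IP 1 was not tested.

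**Figure D2:**
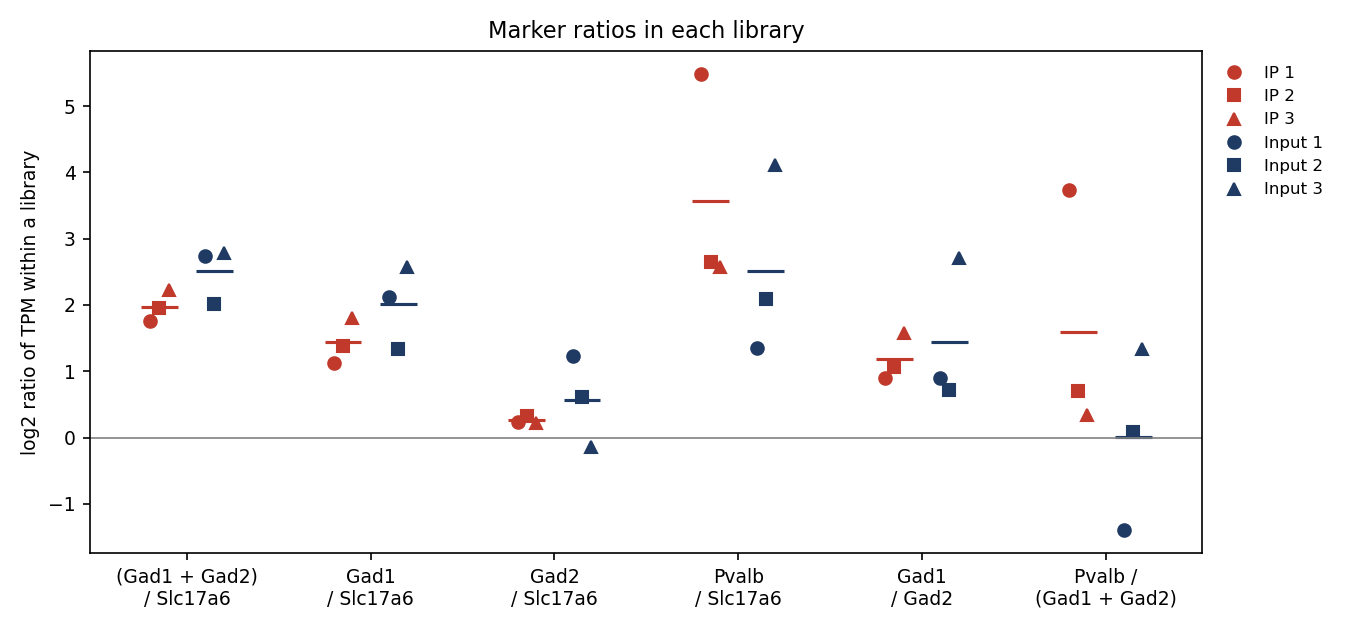
Log2 ratios of marker TPM within each library (vertical axis) for 6 pairs of markers, with IP in red, Input in dark blue, circles, squares and triangles for replicates 1, 2 and 3, and short lines for group means. The 3 IP libraries lie close together for (Gad1 + Gad2) to Slc17a6 and for Gad2 to Slc17a6, whereas IP 1 is far above the others in both ratios that hold Pvalb.

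The length of transcripts moved with the library that decides most of these values. Over 5354 genes with a coding transcript (96.7% of the table), the relative level in IP 1 minus the mean of IP 2 and IP 3 had a median of 1.10 for genes under 1000 bases (445 genes), -0.20 for 3000 to under 5000 bases (1496 genes) and -0.27 for 5000 bases and over (559 genes). Gad1, Gad2 and Slc17a6, all longer than 3000 bases, were at -2.28, -1.81 and -1.75 in the same difference, which placed them at the 0.1, 0.9 and 0.7 percentiles of their own length classes. Pvalb, under 1000 bases, was at 1.0, near the middle of its class (45.2 percentile). Input 3 against Inputs 1 and 2 gave class medians of -0.42 for genes under 1000 bases and 0.06 for those of 5000 bases and over, the opposite tilt. There Pvalb was at 2.33, the 99.1 percentile of its class, and Gad2 at -1.06, the 8.8 percentile. With each library centred on genes of the same length class, also chosen after the data were seen, the differences of IP from Input were -0.65, -0.55, 0.68 and -0.07 for Gad1, Gad2, Pvalb and Slc17a6, and 0 of the 4 were called.

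**Figure D3:**
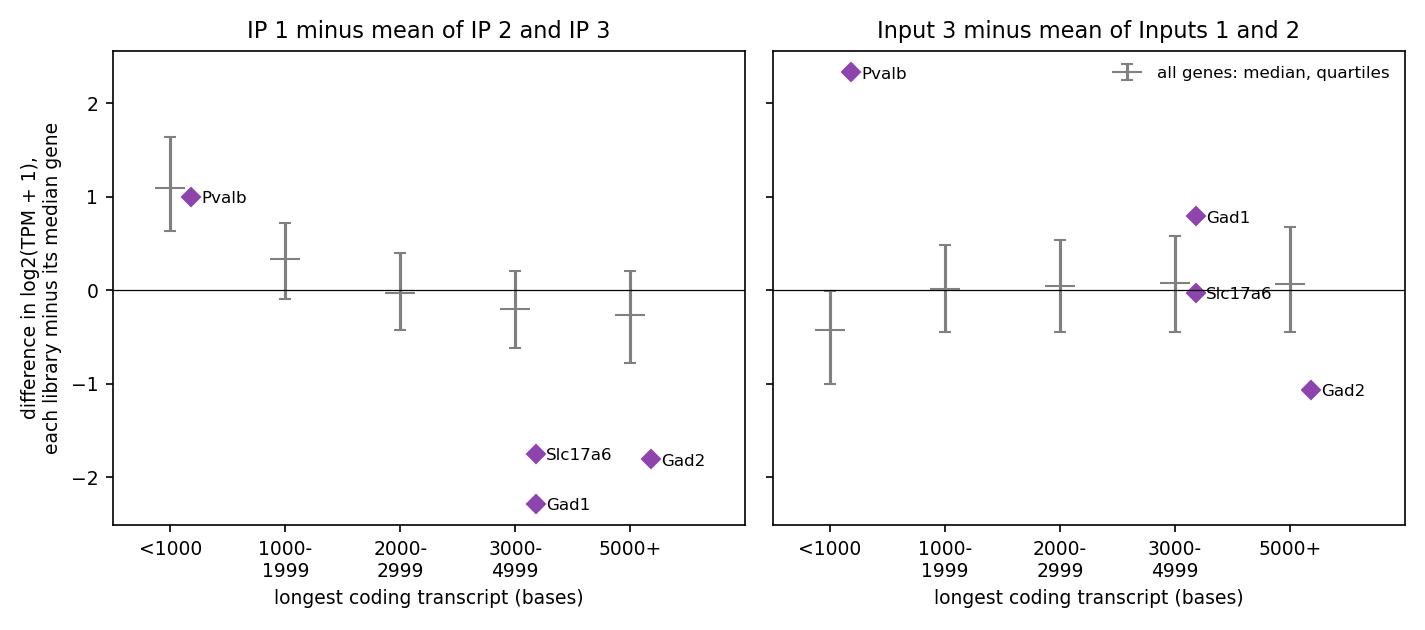
Difference in relative level (log2) of IP 1 from the mean of IP 2 and IP 3 (left) and of Input 3 from the mean of Inputs 1 and 2 (right), by length class of the longest coding transcript, with grey lines for the median and quartiles of all genes in the class and purple diamonds for the 4 markers. Gad1, Gad2 and Slc17a6 lie far below their classes on the left, and Pvalb lies far above its class on the right.

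Other genes of both transmitter pathways came from lists chosen with earlier results known, which also hold Gad1, Gad2 and Slc17a6. Of 10 genes of GABA synthesis, transport and breakdown 4 had values: Gad1, Gad2, Abat and Slc12a5. Of these 0 passed in either direction. Their median difference, which includes Gad1 and Gad2 themselves, was -0.25 against 0.02 for all genes. Without IP 1 and Input 3 the median turned to 0.21, against -0.04 for all genes, with 0 called. Slc12a5, the chloride exporter KCC2 on which inhibition by GABA depends, was at 0.31 (SE 0.42), and Abat, which breaks GABA down, at -0.10 (SE 0.34). Of 29 genes of GABA and glycine receptors and their scaffold 8 had values, 0 passed, and all 8 differences were negative, with a median of -0.38. Gabbr1, a subunit of the metabotropic GABA-B receptor, had 35.09, 99.96 and 82.44 TPM in IP and 179.34, 127.82 and 91.15 TPM in Input. Its relative levels in IP all lay below those in Input, which held for 1 of the 8, against 9.71% of all genes. The difference of Gabbr1 was -0.69 (SE 0.28, limma adjusted p = 0.649). Gabarapl2, a relative of the GABA-A receptor-associated protein, was at -0.53, again without passing. Without IP 1 and Input 3 the median of the 8 was -0.26, and 0 of them were called.

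Of 18 genes of glutamate transport and metabolism 11 had values, Slc17a6 among them, 7 differences were positive, 0 passed, and the median was 0.12. Without IP 1 and Input 3 all but Glul, glutamine synthetase, were positive (10 of 11), the median was 0.38 against -0.04 for all genes, and 0 were called. Got2, a mitochondrial aspartate aminotransferase, was at 0.72 (SE 0.39), Glud1, glutamate dehydrogenase, at 0.80 (SE 0.81), Gls2, a glutaminase, at 0.33 (SE 0.23), and Slc38a1, a glutamine transporter, at -0.22 (SE 0.38), which turned to 0.38 without IP 1 and Input 3. Glud1 had 8.63 TPM in Input 3 against 165.44 and 172.13 in Inputs 1 and 2, and without IP 1 and Input 3 its difference was 0.02. Of 38 glutamate receptor and scaffold genes 5 had values (Grin1, Grina, Dlg4, Cnih2 and Camk2b), with a median of 0.16 and 0 called, and a median of -0.02 without IP 1 and Input 3. Grin1, the shared subunit of NMDA receptors, was at 0.16 (SE 0.28). In the second reading 1 of the 5, Cnih2, a partner of AMPA receptors named for that call, was lower in IP (log2 -0.92, limma adjusted p = 0.0222), a call made for 2.89% of all genes. Over all libraries Cnih2 was at -0.13 (SE 0.64, limma adjusted p = 0.955). It had 13.37 TPM in Input 3, below every IP library, against 158.62 and 164.84 TPM in Inputs 1 and 2.

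Pvalb stands in a list of interneuron and fast-spiking genes, of which 17 of 34 had values. The median difference of the 17 was 0.43 against 0.02 for all genes, 14 were positive, and 0 passed. Lynx1, a modulator of nicotinic receptors, had 61.71, 93.19 and 89.75 TPM in IP and 85.38, 67.67 and 24.67 TPM in Input. Its difference was 0.85 (SE 0.27, limma adjusted p = 0.649), with every relative level in IP above every one in Input. Calb2, which encodes calretinin, a calcium buffer of other interneurons, went the opposite way, with 58.16, 116.78 and 149.96 TPM in IP and 354.76, 362.96 and 121.56 TPM in Input (log2 -1.06, SE 0.28, adjusted p = 0.649). In 5 of the 17, Kcna1, Kcnab2 and Lynx1 among them, all IP relative levels were above all Input levels, against 6.93% of all genes, and in 1 (Calb2) all were below, against 9.71%. In the second reading the median of the 17 was 0.75, and 7 of the 17 were higher in IP, Pvalb among them, and 2 lower, Calb2 and Sst, where 3.38% of all genes were higher and 2.89% lower. Many of these genes are not limited to interneurons. None of the 24 transcription factors listed for midbrain GABA and glutamate neurons had a value.

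**Figure D4:**
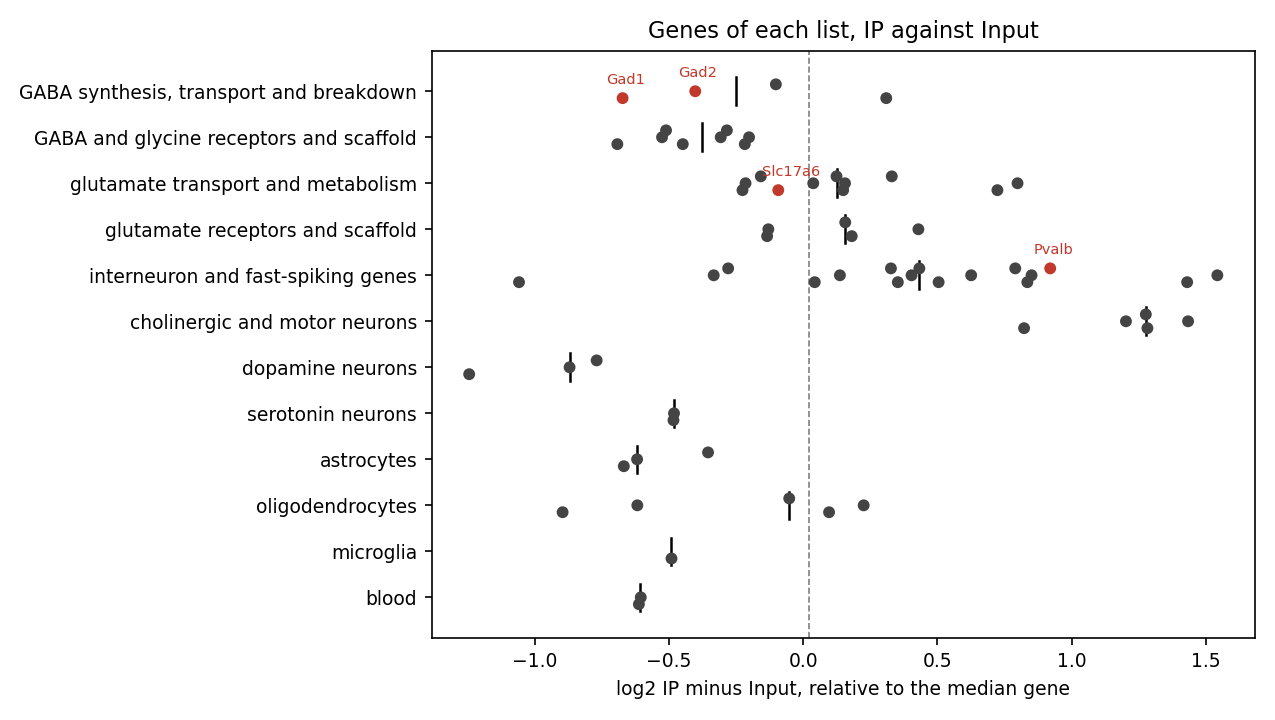
Log2 difference of IP from Input relative to the median gene (horizontal axis) for every measured gene of each list, with the 4 markers in red, a short black line for the median of the list and a dashed line for the median of all genes. GABA receptor genes all lie below the dashed line, interneuron and fast-spiking genes mostly above it, and the cholinergic list has the highest median (1.28).

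Markers of other cells in the same libraries are given for comparison. Of 7 cholinergic and motor neuron markers 5 had values, and 0 of them passed the limma test over all libraries. Their median difference was 1.28 (1.69 without IP 1 and Input 3). In that second reading, chosen after the data were seen, 5 of the 5 were called higher in IP by limma, against 3.38% of all genes. Their summed level was 412 to 643 TPM in IP and 186 to 326 TPM in Input. The summed level of 3 of 4 dopamine neuron markers was 67.3 to 438 TPM in IP and 108 to 1326 TPM in Input, that of 2 of 3 serotonin neuron markers 156 to 953 and 136 to 2292 TPM, that of 3 of 7 astrocyte markers 57.5 to 157 and 89.6 to 394 TPM, and that of 5 of 6 oligodendrocyte markers 357 to 4390 and 528 to 4770 TPM. IP 1 was the lowest IP library and Input 3 the lowest Input library in the sums of these last 4 lists. In the cholinergic sum Input 3 was the highest Input instead. Median differences of the dopamine, serotonin, astrocyte and oligodendrocyte lists were -0.87, -0.48, -0.62 and -0.05, and 0 of their genes passed over all libraries. Without IP 1 and Input 3 these medians were -1.06, -1.01, -1.23 and -0.43. In the same order, 1 of 3, 1 of 2, 2 of 3 and 0 of 5 genes were called lower in IP there, against 2.89% of all genes. The blood sum, from 2 of 4 markers, was 48.4 to 234 TPM in IP and 19.4 to 932 TPM in Input. Of 5 microglia markers Ctss alone had a value, 12.03 to 15.69 TPM in IP and 15.3 to 35.6 in Input, and 0 of 4 endothelial markers had one. The part of these cells in the values of Gad1, Gad2, Pvalb and Slc17a6 was not tested.

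Among 5268 genes compared, leaving out gene models, pseudogenes and mitochondrially encoded genes, the profile over the 6 libraries nearest to that of Gad1 belonged to Matr3, a nuclear matrix protein, then Sacm1l and Sept7. Likeness is the root mean square difference of relative log2 levels after each gene is set to its own mean. It was 0.21, 0.34 and 0.35 for these genes, where the median gene was 1.0 away. Nearest to Gad2 were Usp11, Enpp2 and Ap3m2 (0.13, 0.16 and 0.19). Nearest to Slc17a6 were the kinesin gene Kif5b, G6pdx and Kcnip1, a potassium channel partner (0.17, 0.18 and 0.19). Nearest to Pvalb were Cdkn1a, Trabd and Rab11fip4 (0.24, 0.25 and 0.26). Of the markers themselves, Gad2 and Slc17a6 were the closest pair, 0.42 apart, Gad1 and Slc17a6 were 0.51 apart and Gad1 and Gad2 0.67. Pvalb was 1.33 to 1.66 away from the other 3, farther than the median gene was from Pvalb (1.06). These are descriptions over 6 libraries.

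**Figure D5:**
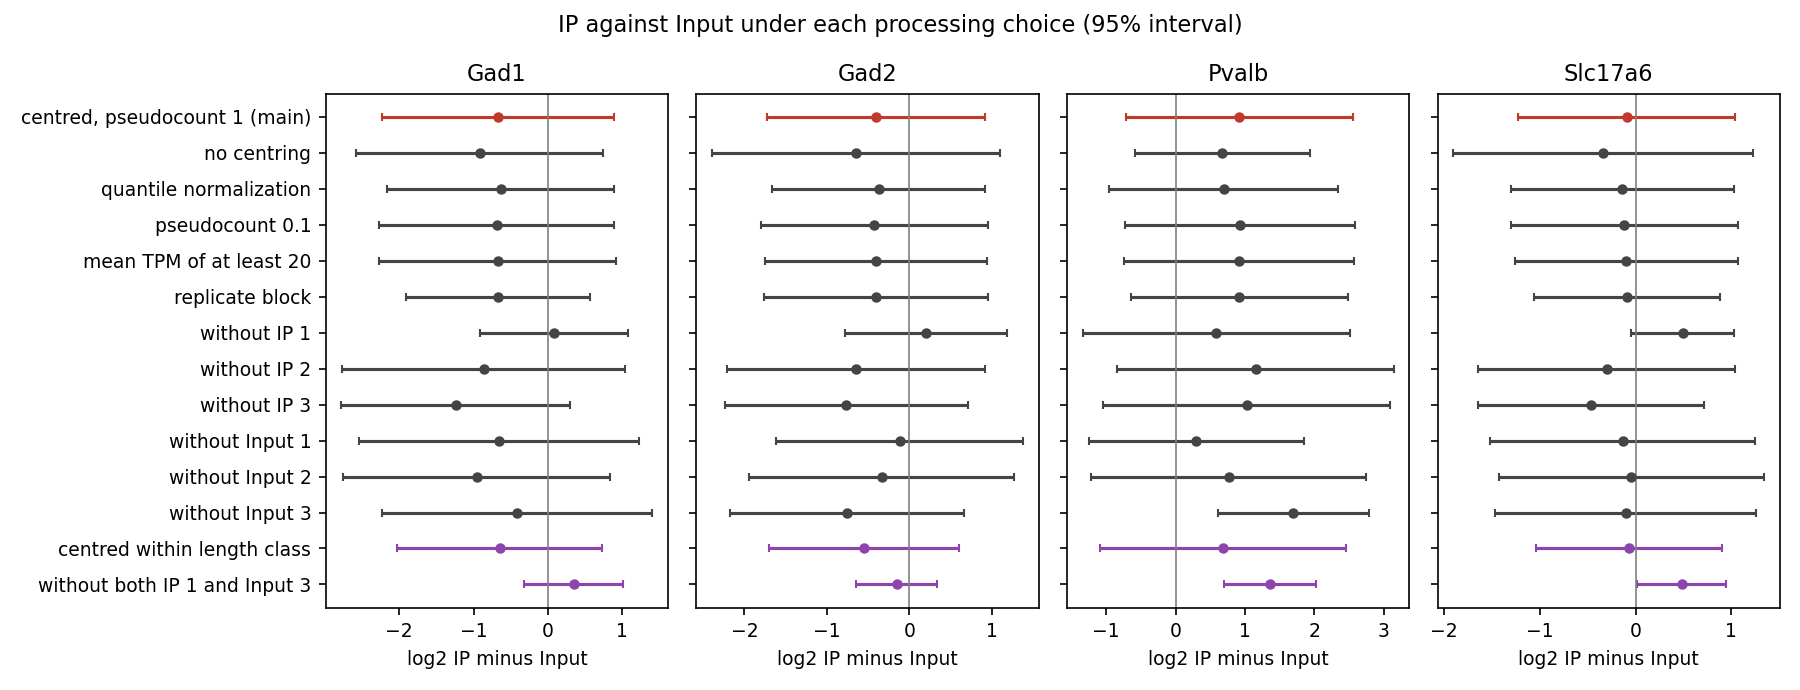
Log2 difference of IP from Input (horizontal axis) for each marker under each processing choice (rows), with points for estimates, bars for 95% intervals, red for the reported fit, grey for other settings and purple for those chosen after the data were seen. Gad1, Gad2 and Slc17a6 cross to the positive side without IP 1, and the interval of Pvalb leaves 0 without Input 3.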

How the data were processed

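The authors deposited TPM for 6 libraries in 1 table, per the file headers, and 0 further columns held values. RSEM, DESeq and mm10 are named in the submitters' processing notes, with no versions or roles. The aligner and the filter behind the table are not given in the sources used here. TPM were transformed to log2(TPM + 1), the median gene of every library was set to 0, and IP was compared with Input by limma 3.58.1 in R 4.3.3 (eBayes with trend, group as the only term) over all 5538 genes, with Benjamini-Hochberg adjustment and a threshold of 0.05. Fold changes on this scale understate those of genes with low TPM. A minimum mean TPM of 1 left out 0 genes. Marker ratios were tested by exact permutation over libraries (scipy 1.17.1). The script was tested on simulated data. Members and lists were chosen with earlier results of these data known. Named genes are the 4 members, up to 4 genes of each pathway list with the smallest p, and the 3 genes nearest each member in profile, and other genes are named where a small count includes them. Markers of other cell types are given as sums, median differences and counts of genes called. Alternatives were no centring, quantile normalization, a pseudocount of 0.1, a minimum mean of 20 TPM, the replicate block and leaving out each library. Centring within classes of transcript length (GENCODE M21) and leaving out IP 1 and Input 3 together were chosen after the data were seen. Results of some genes that the rule names are not reported here.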

Additional observations from a re-analysis of the deposited data

How the results depend on the processing

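No marker was called under any alternative run, apart from leaving out IP 1 and Input 3 together. With each library left out in turn, the difference of IP from Input ranged from -1.24 to 0.087 for Gad1, -0.76 to 0.20 for Gad2, 0.30 to 1.70 for Pvalb and -0.47 to 0.49 for Slc17a6. The positive ends for Gad1, Gad2 and Slc17a6 came without IP 1. Without both IP 1 and Input 3, chosen after seeing the data, Gad1 and Slc17a6 turned to 0.35 and 0.48 and Pvalb was called at 1.36. The number of genes called was 0, but 17 without Input 3 (0 to 17 over single libraries left out) and 347 without both libraries. Without centring the median gene moved by -0.23, and the differences were -0.92, -0.65, 0.67 and -0.34 for Gad1, Gad2, Pvalb and Slc17a6. Deviations of same-numbered libraries from their group means correlated at -0.099, 0.249 and -0.167 across genes for numbers 1, 2 and 3. IP 1 correlated best with Input 3 (0.189) and IP 2 with Input 2 (0.249). With 3 libraries a group these values cannot settle whether same-numbered libraries are pairs. The reported fit did not treat them as pairs, and the replicate block is an alternative. With the replicate block the estimates were the same and the adjusted p were 0.833, 0.895, 0.826 and 0.964. The balance of GABA to glutamate markers was -0.54 in the block and p = 0.25 in an exact sign-flip test, the smallest that 3 pairs allow. It kept its sign in all 10 alternatives, between -0.79 and -0.41 with single libraries left out and -0.29 without both. Depth is unknown, which limits how firmly low values such as Slc17a6 in IP 1 can be read.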
